A study of Mus musculus with 6 samples.

Results

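The SR proteins are splicing factors with RNA recognition motifs, which bind exonic enhancers, and a tail rich in arginine and serine, which recruits the spliceosome to nearby splice sites. Kinases of the SRPK and CLK families phosphorylate that tail and so set where the proteins reside and when they act, and several members also escort spliced mRNA to the cytoplasm. Many SR genes limit their own expression by including a poison exon that sends the mRNA to nonsense-mediated decay (NMD), so their mRNA level is under tight feedback.

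The 10 SR genes described here (Srsf1 to Srsf7, Srsf9, Srsf10 and Srsf11) were chosen by gene symbol out of 55254 symbols in the count table, without use of any measured value. They were compared between control bone marrow-derived macrophages (BMDMs, genotype hnRNPDfl/fl) and M-Δx3,4 BMDMs (genotype LysCre+hnRNPDfl/fl), all of strain C57BL/6J. The loxP sites flank exons of hnRNPD, the gene of the AUF1 proteins that bind AU-rich mRNA, and both groups carry them, while Cre, driven by the LysM promoter in the myeloid lineage, is in M-Δx3,4 BMDMs (MΔχ3,4 in the labels). All BMDMs were grown for 10 days with medium conditioned by L929 cells and then exposed for 4 hrs to LPS at 100 ng/ml, and there were no untreated samples. RNA was sequenced from the 3′ ends with 3 libraries per group, and the labels do not state whether each came from a separate animal, so p-values measure the spread between these libraries, which may be technical in part. In bulk RNA, fewer cells of a type and less RNA per cell cannot be told apart.

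The libraries held 5852374 to 9008878 counts, summed over transcripts that share reads. Counts were normalized by the median of ratios, and edgeR's quasi-likelihood test was run on the difference between M-Δx3,4 and control over all transcripts, with p-values adjusted by Benjamini-Hochberg. A transcript was called when its unadjusted p was under 0.05 and its absolute log2 fold change at least 1. The targeted gene had 178, 104 and 69.6 normalized counts in the controls and 52.8, 12.6 and 16 in M-Δx3,4 BMDMs (Hnrnpd, ENSMUST00000072750), with no overlap and a log2 fold change of -2.11 (edgeR adjusted p = 0.984, standard error 0.54). All 8 macrophage markers examined were measured, at a summed level of 6452 to 7034 normalized counts in the controls and 5413 to 7072 in M-Δx3,4 libraries, with 3 markers higher, 5 lower and a median log2 fold change of -0.26. Lyz2 was at 1992, 1788 and 2201 in the controls and 1342, 882 and 968 in M-Δx3,4 libraries, which did not overlap (log2 fold change -0.91, unadjusted p = 0.0089 by edgeR, not called). Only M-Δx3,4 BMDMs carry the Cre driven by the LysM promoter, and whether that bears on Lyz2 was not tested. Of the 4 B cell markers tested, 2 were higher and 2 lower, and Igkc was called. Igkc had 223, 229 and 252 normalized counts in the controls and 83.1, 59.2 and 95.5 in M-Δx3,4 libraries. Its log2 fold change was -1.56 (unadjusted p = 0.00039, adjusted p = 0.984 by edgeR). Ms4a1, which was not tested, had 2.3, 3.1 and 1.2 in the controls and 0 in all M-Δx3,4 libraries. The 4 fibroblast markers, all lower, summed to 1.2 to 43.0 and 1.9 to 28.4 normalized counts, and Col3a1, which was called, had 13.9, 6.1 and 0 in the controls and 0 in all M-Δx3,4 libraries. Summed markers of neutrophils were at 231 to 600 and 384 to 535, those of dendritic cells at 2.3 to 17.4 and 4.6 to 9.7, and those of T cells at 45.2 to 55.8 and 25.4 to 42.7, with none called. The part of these cells in the values below was not tested.

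No SR gene was called. Each gene is represented by its most counted transcript, and all 10 passed the filter on low counts. Among them 0 had an unadjusted p under 0.05 by edgeR, by DESeq2 or by limma-voom, against a background of 3.98% of the 11873 genes tested by edgeR in this way, and 0 were called, against 3.07%. With 10 genes such shares allow few calls or none. The edgeR adjusted p ranged from 0.984 to 0.998. In 7 genes the fitted value was higher and in 3 lower in M-Δx3,4 BMDMs, with a median log2 fold change of 0.17, beside a median of -0.01 and 49.5% higher over all genes tested. In none of the 10 were the groups apart, while they were apart in 8.44% of all genes.

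On mm10 the counted regions, each of which covers the last exon and mostly its 3′ UTR, were chr11:88049607-88054004 for Srsf1, chr17:29039488-29043146 for Srsf3, chr4:131901073-131901955 for Srsf4, chr12:80949979-80950756 for Srsf5, chr2:162934758-162937370 for Srsf6, chr5:115328429-115333329 for Srsf9 and chr4:135864027-135866064 for Srsf10, all on the plus strand. On the minus strand they were chr11:116849652-116852027 for Srsf2, chr17:80199831-80201547 for Srsf7 and chr3:158010224-158012008 for Srsf11. The regions of Srsf2, Srsf3 and Srsf9 also take in upstream exons, with the introns between them left out.

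**Figure D1:**
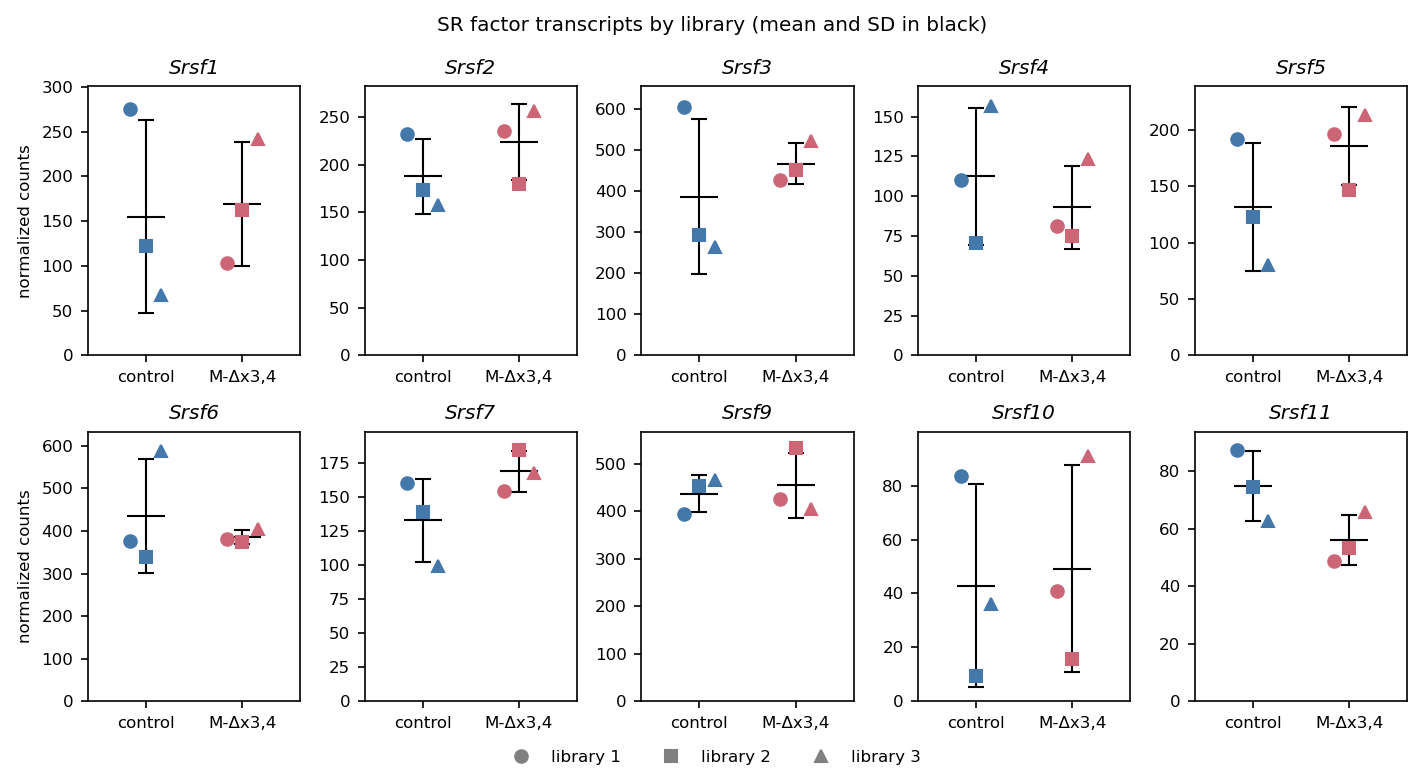
Normalized counts (vertical axes, each from 0) of the most counted transcript of each SR gene in the 3 control (blue) and 3 M-Δx3,4 (red) libraries, with symbols for the library number and the mean and SD in black. The groups overlap in all 10 panels, and the control libraries of Srsf1, Srsf3, Srsf4, Srsf5 and Srsf10 spread over more than 2-fold.

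Srsf1 and Srsf2 are the prototype SR proteins, which promote exon inclusion through splicing enhancers. Srsf1 (ENSMUST00000139129) had 275, 123 and 67.3 normalized counts in the controls and 104, 162 and 242 in M-Δx3,4 libraries. Control replicate 1 was the highest of the 6 and control replicate 3 the lowest, so the controls lay on both sides of every M-Δx3,4 library. The means were 155 ± 108 and 169 ± 69.6 (SD, n = 3 each), with a log2 fold change of 0.13 and a 95% interval from -0.88 to 1.14. Srsf2 (ENSMUST00000092404) had 232, 174 and 158 in the controls and 236, 179.6 and 256 in M-Δx3,4 libraries. Its controls 2 and 3 were below every M-Δx3,4 library and control 1 was not. Its log2 fold change was 0.25 (interval -0.45 to 0.96), and the exact permutation test over libraries, two-sided, gave p = 0.2, where 3 against 3 cannot go below 0.1.

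Srsf3 and Srsf7 shuttle between nucleus and cytoplasm and act as adaptors of the mRNA export factor Nxf1. Srsf3, on the plus strand of chromosome 17 (mm10), held the highest normalized count of any member in a single library. Its top transcript (ENSMUST00000037776) had 603, 292 and 262 normalized counts in the controls and 426, 451 and 521 in M-Δx3,4 libraries. The M-Δx3,4 libraries lay close together, between control 1 on the high side and controls 2 and 3 on the low side. The means were 386 ± 189 and 466 ± 49.6 (SD, n = 3 each), with a log2 fold change of 0.27 (interval -0.49 to 1.03). Srsf7 (ENSMUST00000063417) had 160.4, 139 and 99.8 in the controls and 155, 184 and 168 in M-Δx3,4 libraries. Only control 1 reached into the M-Δx3,4 range. Its log2 fold change was 0.35 (interval -0.38 to 1.07; two-sided exact permutation p = 0.2).

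Srsf4, Srsf5 and Srsf6 are close relatives with paired RNA recognition motifs, and they did not share a direction. Srsf5 (ENSMUST00000094693, chromosome 12) had 192, 123 and 80.1 normalized counts in the controls and 197, 147 and 213 in M-Δx3,4 libraries. Its fold change was the highest of the 10, with means of 131 ± 56.4 and 185 ± 34.7 (SD, n = 3 each), a log2 value of 0.50 and an interval from -0.31 to 1.3. Control 1 lay among the M-Δx3,4 libraries and the other controls below them (two-sided exact permutation p = 0.2). Srsf4 (ENSMUST00000053819) had 110.4, 70.5 and 157 in the controls and 81.2, 74.8 and 123 in M-Δx3,4 libraries, and Srsf6 (ENSMUST00000130411) had 377, 339 and 588 against 381, 374 and 405. For both, control 3 was the highest library of the 6 and control 2 the lowest. The log2 fold changes were -0.27 (interval -1.11 to 0.57) for Srsf4 and -0.17 (interval -0.85 to 0.52) for Srsf6. The M-Δx3,4 libraries of Srsf6 differed by 1.08-fold from lowest to highest, the controls by 1.73-fold.

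Srsf9, a paralog of Srsf1, was the steadiest of the 10. It had 394, 454 and 465 normalized counts in the controls and 426, 533 and 404 in M-Δx3,4 libraries (ENSMUST00000209604). The log2 fold change was 0.05 with an interval from -0.59 to 0.70, so a change of 2-fold in either direction was outside the interval. The interval also lay within 1 of 0 for Srsf2 and Srsf6, and for no other SR gene. For the other 7, a change of 2-fold in at least 1 direction was within the interval.

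Srsf10, which represses splicing when dephosphorylated, and Srsf11, which contacts the large U2AF subunit, had the fewest counts. Srsf10 (ENSMUST00000097844) had 83.7, 9.2 and 36.0 normalized counts in the controls and 41.1, 15.5 and 90.9 in M-Δx3,4 libraries. Libraries of 1 group differed by up to 9.10-fold in the controls and 5.85-fold in M-Δx3,4, more than for any other member, and its log2 fold change of 0.21 had an interval from -1.21 to 1.63. Srsf11 (ENSMUST00000121326, chromosome 3, minus strand) had 87.2, 74.6 and 62.6 in the controls and 48.9, 53.4 and 65.7 in M-Δx3,4 libraries. Only M-Δx3,4 replicate 3 reached into the control range. Its log2 fold change was -0.41, the lowest of the 10 (interval -1.20 to 0.37; two-sided exact permutation p = 0.2).

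**Figure D2:**
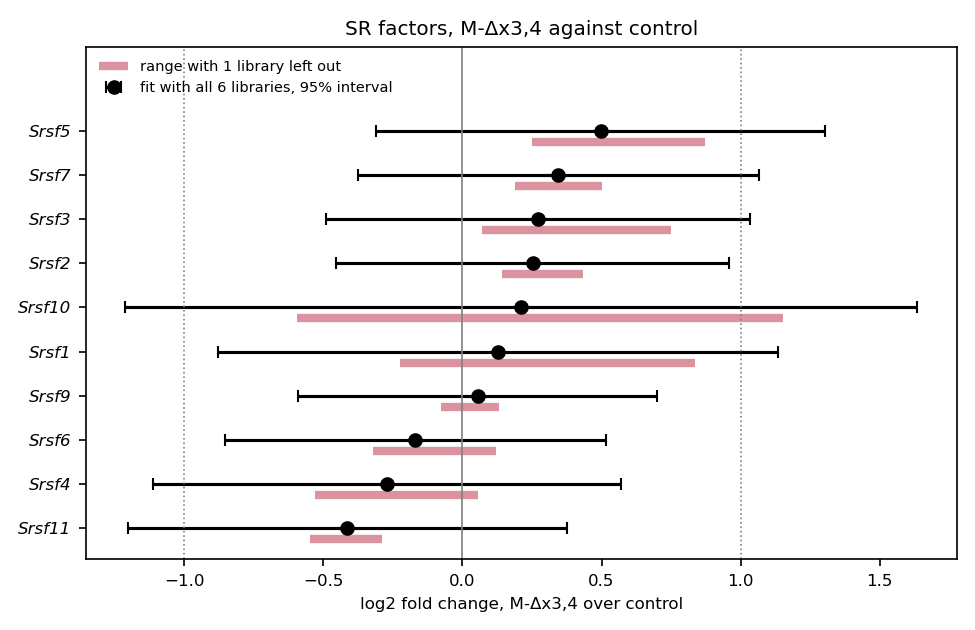
Log2 fold change of M-Δx3,4 over control (horizontal axis) for the 10 SR genes from the fit with all 6 libraries (black points, 95% intervals as bars), and the range of values when 1 library was left out (red bars). Dotted lines mark a 2-fold change. Every interval crosses 0, and the red bars of Srsf2, Srsf3, Srsf5, Srsf7 and Srsf11 stay on 1 side of 0.

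Leaving out control replicate 1 moved Srsf1, Srsf2, Srsf3, Srsf5 and Srsf10 more than leaving out any other library did, and the other 5 genes moved more without another library. Without it, Srsf3 had a log2 fold change of 0.75 (unadjusted p = 0.0275, adjusted p = 0.284 by edgeR) and Srsf5 of 0.87 (unadjusted p = 0.0273, adjusted p = 0.283), so 2 of 10 members had an unadjusted p under 0.05. In that same fit 16% of all genes did, and 10.4% of all transcripts were called, against 3.3% with all libraries. The members called remained 0. Srsf10 reached 1.15 and Srsf1 0.84 in the fit without control 1. Over the 6 fits that each left out a library, the log2 fold change stayed above 0 for Srsf2 (0.14 to 0.43), Srsf3 (0.07 to 0.75), Srsf5 (0.25 to 0.87) and Srsf7 (0.19 to 0.50), and below 0 for Srsf11 (-0.55 to -0.29). It changed sign in at least 1 of these fits for Srsf1, Srsf4, Srsf6, Srsf9 and Srsf10.

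Within the control group the SR genes followed different orders of the libraries. Control 1 was the highest control for Srsf1, Srsf2, Srsf3, Srsf5, Srsf7, Srsf10 and Srsf11, 7 of 10, against 41.8% of the 4723 genes that averaged above 50 normalized counts. For Srsf4, Srsf6 and Srsf9 it was control 3, against 35.3% of those genes. Control 1 exceeded control 3 by 4.09-fold for Srsf1, 2.40-fold for Srsf5, 2.33-fold for Srsf10 and 2.30-fold for Srsf3, while 21.6% of the genes above 50 were at least 2-fold higher in control 1. The spread from lowest to highest library was wider in control than in M-Δx3,4 for 9 of the 10 members and for 72.8% of the genes above 50. Srsf10, with a mean of 46.1, was below that cut but is counted among the members in each of these comparisons. Summed over the 10 members, the normalized counts were 2515, 1797 and 1976 in the controls and 2094, 2174 and 2490 in M-Δx3,4 libraries, again with control 1 at the top.

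**Figure D3:**
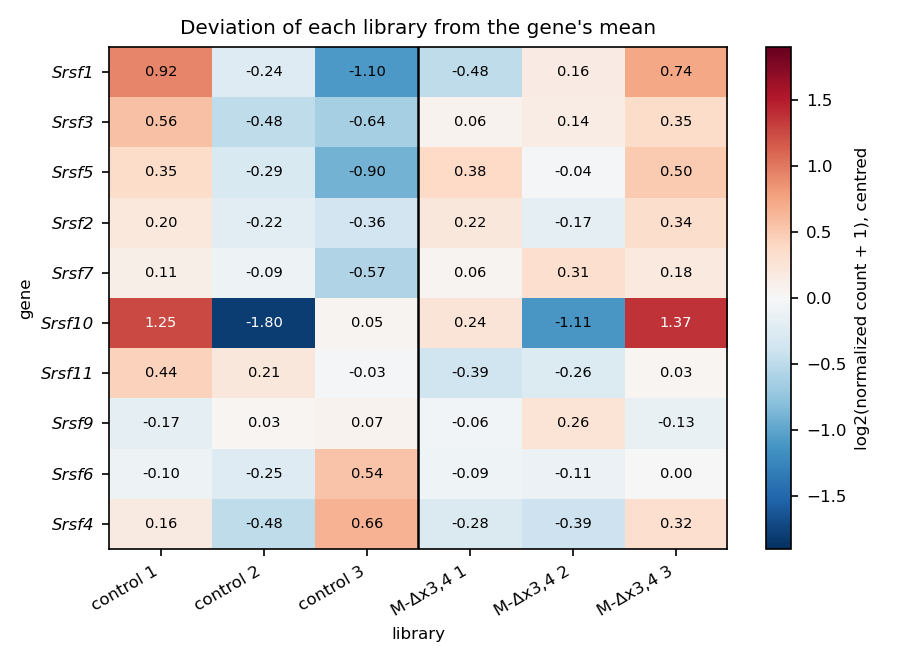
Log2(normalized count + 1) of each SR gene (rows) in each library (columns), as the difference from the gene's mean over the 6 libraries, red above and blue below. Control 1 is above the mean for all genes but Srsf6 and Srsf9, control 3 is furthest above it for Srsf4 and Srsf6, and Srsf10 has the widest range, from -1.80 to 1.37.

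The likeness of these patterns was measured as the mean absolute difference between centred log2 values over the 6 libraries, without a test. The closest members were Srsf2 and Srsf7 at 0.20, Srsf2 and Srsf5 at 0.21 and Srsf3 and Srsf7 at 0.21, then Srsf3 and Srsf5 at 0.22. Srsf6 was closest to Srsf9 (0.23) and Srsf4 to Srsf6 (0.23). Srsf10 differed from every other member by at least 0.84. Among genes outside the lists, those nearest to the members' mean pattern were N4bp1 (0.06), Yeats4 (0.06), Shisa3 (0.07), Pde4b (0.07) and Glo1 (0.07). Control 1 was high and control 2 low in them, which follows from choosing them by nearness to that pattern.

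Levels were compared between genes with the authors' TPM, which divides by the length of the counted region. Srsf9 had the highest TPM in control BMDMs, 21.6 ± 0.58 (SD, n = 3), with all its libraries above those of the next gene. Srsf5 (12.4 ± 6.09), Srsf3 (12.3 ± 6.86), Srsf6 (11.9 ± 3.29), Srsf2 (10.4 ± 2.87), Srsf4 (9.17 ± 3.36) and Srsf7 (5.64 ± 1.62) followed, and no neighbours in that order were apart in their libraries. All control libraries of Srsf7 were above those of Srsf11 (3.04 ± 0.68 TPM), which overlapped Srsf1 (2.62 ± 1.99), and Srsf1 overlapped Srsf10 (1.56 ± 1.46). Without division by length the order differed. Mean normalized counts in the controls were 438 for Srsf9, 435 for Srsf6, 155 for Srsf1 and 131 for Srsf5. Reads came from 3′ ends, so part of the TPM order may reflect region length, which was not tested. TPM also depends on the region chosen. For Srsf9 the transcript of 1454 bases gave 21.6 TPM, while Srsf9-201 (ENSMUST00000031513) of 610 bases, which held nearly the same counts, gave 51.3 ± 1.31.

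The count table lists 85 transcripts of the 10 genes, of which 71 had a count and 59 passed the filter, with 49 distinct sets of counts. None of the 59 was called (background 3.3%), and by edgeR the lowest unadjusted p was 0.0659. Of the 49 distinct sets, 36 were higher and 13 lower in M-Δx3,4 BMDMs, but most of them repeat reads of the top transcripts. In 3 sets the groups were apart, 6.12% of the 49, against 8.88% of all transcripts tested. Srsf3-204 (ENSMUST00000147265) had 3.5, 4.1 and 3.5 normalized counts in the controls and 5.9, 11.7 and 13 in M-Δx3,4 libraries, with a log2 fold change of 1.44 (interval -0.11 to 2.98). It is a region of 249 bases within the last exon of Srsf3. Srsf3-205 (ENSMUST00000150157), whose region overlaps it, had 82.5, 83.8 and 62.6 in the controls and 92.9, 117 and 115 in M-Δx3,4 libraries, with a log2 fold change of 0.50. Srsf11-202 (ENSMUST00000072875), the shorter form of the Srsf11 3′ UTR, had 54.6, 60.3 and 49.9 in the controls and 42.1, 34.0 and 42.8 in M-Δx3,4 libraries, with a log2 fold change of -0.47 (interval -1.28 to 0.34). For all 3 the exact permutation test cannot give less than p = 0.1, and the edgeR adjusted p was 0.984.

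Among the lesser transcripts, Srsf11 had the widest range of values, from -0.70 for Srsf11-207 to 2.17 for Srsf11-209. The latter is a coding transcript with 1.2, 2.0 and 0 normalized counts in the controls and 0, 10.7 and 5.3 in M-Δx3,4 libraries, so its value rests on M-Δx3,4 replicates 2 and 3. All transcripts of Srsf1, Srsf2, Srsf7 and Srsf9 that passed the filter had a fitted value above 0, and those of Srsf4 and Srsf6 below 0.

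Of the 59 tested transcripts, 26 are annotated as coding, 16 as retained introns, 10 as NMD targets and 7 as processed transcripts. The 3′ counts say little about which form was present, since most of these forms share the last exon. The top transcript of Srsf3 is annotated as an NMD target, yet 95% of its counts lay in its last segment (chr17:29041384-29043146), and its first segment of 422 bases (chr17:29039488-29039909) held 0 counts in all libraries. For Srsf9, also given by an NMD transcript, 99.6% of the counts lay in the last segment. The NMD transcript of Srsf6 (Srsf6-201) held 99.8% of its counts in the last segment, with 5 counts outside it. Srsf2-202 held 96% and Srsf7-203 92.8% in theirs. The counts of Srsf7-203 outside that segment came to 58 over all libraries.

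Because the regions of different transcripts are nested, the counts of a gene could be split by position. In all 10 genes the counted region of the top transcript runs 249 bases past the annotated end. The share of counts in 1 window per gene was compared between groups, in windows chosen after the counts had been seen. In none of the 10 were the groups apart, and over the 10 two-sided exact permutation tests the lowest p was 0.2 (0.667 after Benjamini-Hochberg adjustment).

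The split was of most interest where a gene has separate proximal and distal ends. Srsf7 and Srsf10 each have a polyadenylation signal, AATAAA, in the last 50 bases of both forms, and Srsf11 in those of the proximal form. The sites are shown from RNA sequences of GENCODE release M21 (GRCm38, the build of mm10), 5′ to 3′ with the signal in capitals, to mark the ends that the shares compare.
Srsf7-205, proximal end, chr17:80201313-80201342, minus strand: ttgacacgtttaAATAAAatgtttctaact
Srsf7-201, distal end, chr17:80200090-80200119, minus strand: ttaagtttgttcAATAAAtctgcagagatt
Srsf10-202, proximal last exon, chr4:135865782-135865811, plus strand: caaagatgctatAATAAAaacaaaatgaag
Srsf10-205, distal last exon, chr4:135869864-135869893, plus strand: gttggagagtaaAATAAActggtctaggag
Srsf11-202, proximal end, chr3:158010923-158010952, minus strand: caagactttgatAATAAAacccttaaactc
The signal, read on the transcript strand, stood in the last 50 bases of the most counted coding transcript of 6 members and of 65.8% of the genes tested. A match of these letters is a description and no measure of use.

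For Srsf7, the distal part (chr17:80199831-80201060, past the region of the proximal form) held 26 of 138, 19 of 136 and 9 of 86 counts in the controls and 40 of 158, 32 of 190 and 61 of 220 in M-Δx3,4 libraries. The shares were 18.8%, 14% and 10.5% in the controls and 25.3%, 16.8% and 27.7% in M-Δx3,4 libraries. Control 1 overlapped M-Δx3,4 replicate 2, and the means of 14.4% ± 4.21 and 23.3% ± 5.72 (SD, n = 3 each) had a two-sided exact permutation p of 0.2. As normalized counts, the distal part had 30.2, 19.4 and 10.4 in the controls and 39.1, 31.1 and 46.6 in M-Δx3,4 libraries, which did not overlap (two-sided exact permutation p = 0.1, the smallest that 3 against 3 allow). Control 1 and M-Δx3,4 replicate 2 were then less than 1 normalized count apart.

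For Srsf10, the distal last exon held 41, 22 and 15 counts in the controls and 19, 39 and 79 in M-Δx3,4 libraries, or 36.3%, 71.0% and 32.6% against 31.1%, 70.9% and 39.9% of the counts of both last exons. Replicate 2 of each group had the highest share and the fewest counts in the proximal exon. The distal transcript alone (Srsf10-205) had 47.7, 22.5 and 17.4 normalized counts in the controls and 18.6, 37.9 and 60.4 in M-Δx3,4 libraries. For Srsf11, the distal part held 37.3%, 19.2% and 20.4% in the controls and 14%, 36.4% and 34.9% in M-Δx3,4 libraries, from 7 to 30 counts each. The lower counts of its proximal form in M-Δx3,4 libraries did not go with groups apart in the share.

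In the other 7 genes the window was 249 bases directly past the annotated end of a transcript. It held 78.7%, 81.1% and 82.9% of the last-segment counts of Srsf3 in the controls and 71.8%, 79.0% and 74.4% in M-Δx3,4 libraries, where M-Δx3,4 replicate 2 exceeded control 1 (two-sided exact permutation p = 0.2). For Srsf9 it held 93.5%, 92.7% and 96% in the controls and 96.3%, 96% and 96.2% in M-Δx3,4 libraries. Nearly all Srsf9 counts thus fell past the annotated end of Srsf9-202, which is also that of its top transcript, ENSMUST00000209604. They lay outside the annotated 3′ UTR of that transcript. The mean shares in the controls and M-Δx3,4 were 50.3% and 49.7% for Srsf1, 18.6% and 18.6% for Srsf2, 22.0% and 23.4% for Srsf4, 46.0% and 48.8% for Srsf5, and 60.2% and 59.5% for Srsf6.

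**Figure D4:**
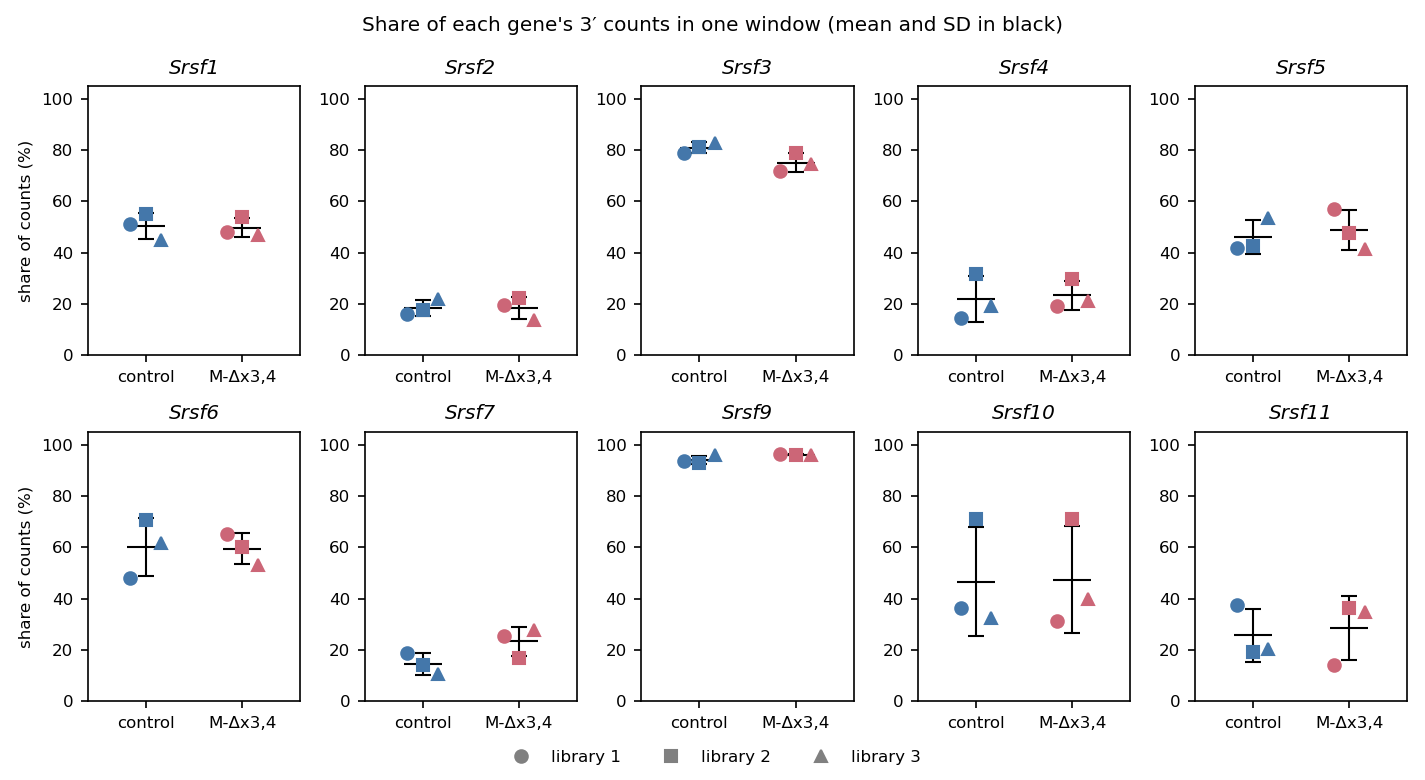
Share of the counts of each SR gene in 1 window of its 3′ region (vertical axes, 0 to 100%) in the 3 control (blue) and 3 M-Δx3,4 (red) libraries, with the mean and SD in black. The window is the distal part for Srsf7 and Srsf11, the distal last exon for Srsf10, and 249 bases past an annotated end for the others. The Srsf7 means are 14.4% in the controls and 23.3% in M-Δx3,4, with overlapping libraries.

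AU-rich elements, motifs that AUF1 binds, were counted in the annotated 3′ UTR of the most counted coding transcript of each gene, on the transcript strand. The study cites a looser affinity of AUF1 that extends to U-rich and GU-rich motifs, which were not counted. A gene without the motifs below may thus still hold AUF1 sites. The pentamer ATTTA occurred in 8 of the 10 genes, 10 times in Srsf1 and Srsf10, 8 in Srsf6, 4 in Srsf3, 3 in Srsf7 and Srsf11, 2 in Srsf2 and 1 in Srsf5, and in neither Srsf4 nor Srsf9. In the last 500 bases it occurred in 7 of the 9 members with a 3′ UTR of that length, and in 57.7% of the 7202 genes tested that have one. The nonamer TTATTTATT, which contains the pentamer, was in none of the 10 3′ UTRs and in the last 500 bases of 3.19% of the tested genes. Srsf10 alone had copies of the pentamer within 30 bases of each other, shown here in capitals.
Srsf10-202, chr4:135864797-135864826, plus strand: ATTTAactattgttgatcattgttATTTAg

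Genes that act with SR proteins were examined in 5 lists of 67 genes, of which 65 were tested and 2 called, beside the background of 3.07%. Of the 9 kinases and transport factors, 5 were higher and 4 lower, with a median log2 fold change of 0.08, and 1 was called. That gene was Srpk3, an SR protein kinase, with 10.5, 15.3 and 27.8 normalized counts in the controls and 5.9, 9.7 and 6.1 in M-Δx3,4 libraries (log2 fold change -1.3, unadjusted p = 0.0431, adjusted p = 0.984 by edgeR). Its groups were apart. The counted region was 249 bases of the transcript Srpk3-203. The annotation as a retained intron belongs to that transcript and does not place the counts in an intron. Clk3, the most counted kinase, had 298, 439 and 362 in the controls and 273, 392 and 289.6 in M-Δx3,4 libraries, which overlapped. Tnpo3, the import receptor of SR proteins, had 395, 214 and 118 in the controls and 176, 335 and 457 in M-Δx3,4 libraries, with control 1 above control 3 as for most SR genes.

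Of 24 SR-related factors, 23 were tested and in edgeR's test none reached an unadjusted p under 0.05. The median log2 fold change was 0.16, with 14 higher and 9 lower, and Srsf12 had 0 counts in all libraries. Groups were apart for 2 of the 23, Thrap3 and Snrnp70, for 2 of the 9 kinases and transport factors, Srpk3 and Dyrk1a, and for 2 of the 22 spliceosome core genes, Sf3b3 and Snrpd3, beside 8.44% of all genes. Snrnp70, the U1 protein that SR proteins contact at the 5′ splice site, had 2819, 3274 and 4039 in the controls and 1849, 2587 and 2789 in M-Δx3,4 libraries (log2 fold change -0.49). The exon junction complex (5 genes, 2 higher, median -0.07) and the spliceosome core (22 genes, 8 higher, median -0.24) had no gene with an unadjusted p under 0.05. Among the 7 genes of export and nuclear sequestering, 6 were tested and 1 was called. Malat1, a nuclear RNA that associates with SR proteins in speckles, had 17.4, 6.1 and 9.3 normalized counts in the controls and 4.9, 25.2 and 139.8 in M-Δx3,4 libraries (log2 fold change 2.38, unadjusted p = 0.0128, adjusted p = 0.984 by edgeR). These counts came from a region of 249 bases of the transcript Malat1-203, which need not stand for the whole RNA. The groups of Malat1 overlapped, and without M-Δx3,4 replicate 3 none of the 65 genes was called.

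Counting could affect some of these values. On opposite strands, Mettl23 overlaps Srsf2 and Gatc overlaps Srsf9, with at most 7 and 11 counts in any library. A pseudogene, Srsf3-ps, had 13.9 ± 5.13 normalized counts in the controls and 19.0 ± 3.82 in M-Δx3,4 BMDMs (SD, n = 3 each). How reads that match it and Srsf3 alike were assigned is not given in the sources used here, so Srsf3 carries that uncertainty.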

How the data were processed

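RNA from control and M-Δx3,4 BMDMs was sequenced from the 3′ ends (QuantSeq on Ion Proton). Per the labels and the study's methods, the authors aligned reads to mm10 with TopHat2 2.1.1 and Bowtie2 and deposited raw read counts per 3′ UTR region of Ensembl transcripts. A second deposited table holds the authors' TPM, used here for levels only, beside fold changes and p-values of their own comparison and 18 columns of normalized values, which were not used. Counts were summed over the regions of a transcript, normalized by the median of ratios and fitted in edgeR 4.0.16 (R 4.3.3, quasi-likelihood test, Benjamini-Hochberg adjustment). Transcripts above the median normalized count (4.89) in at least 1 library were tested. Intervals are 95% from the standard error and its degrees of freedom, 15.1 for each SR gene. That is more than 6 libraries give alone, because edgeR moderates the spread of each transcript with that of all transcripts tested. Its p-values and intervals so do not rest on the gene's own spread alone. DESeq2 1.42.0 and limma 3.58.1 served as alternatives, with other normalizations, filters and libraries left out. The procedure was also run on simulated counts with known changes. These left out transcripts with few counts and were drawn independently for each transcript. Transcripts in the real data share reads, so that run does not show how the procedure handles them. Counts appeared to keep strand: of 27662 nested pairs of regions on the same strand 96.5% had no more counts in the inner than in the outer region in any library, and 24.2% of 1771 pairs on opposite strands did. For likeness, log2 used a pseudocount of 1. The members were chosen by gene symbol and not by measured values, though earlier results of these data were known. The gene lists, windows and tests were also chosen with those results known. Named were all members, their distinct transcripts, list genes with an unadjusted p under 0.05, and the 5 nearest patterns, and further list genes (Clk3, Tnpo3, Thrap3, Snrnp70, Dyrk1a, Sf3b3, Snrpd3, Ms4a1) were added after their values were seen. A listed marker gene is not reported here.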

Additional observations from a re-analysis of the deposited data

How the results depend on the processing

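No SR gene and none of their transcripts was called under any alternative or without any 1 library. The median log2 fold change of the members ran from 0.13 to 0.27 with all libraries kept, and from -0.037 to 0.47 with 1 left out (0.47 without control replicate 1). With all libraries kept no member changed sign. With 1 left out the values ran from -0.22 to 0.84 for Srsf1, -0.53 to 0.056 for Srsf4, -0.32 to 0.12 for Srsf6, -0.077 to 0.13 for Srsf9 and -0.60 to 1.15 for Srsf10. The cause was not tested. Srsf10 could not be tested with at least 10 counts in every library. All transcripts called numbered 704 by DESeq2, 1715 with no filter, 471 by filterByExpr, 265 with at least 10 counts in every library, 365 with 1 transcript per gene, 213 at an unadjusted p under 0.01, and 710 to 3224 with 1 library left out. The genes called in the other splicing lists, 2 in the fit with all libraries, were 1 by DESeq2 and with at least 10 counts in every library, 0 by limma-voom and at an unadjusted p under 0.01, and 0 to 9 with 1 library left out. The 9 were called without control replicate 1, where 10.4% of all transcripts were called, against 3.3% with all libraries. The number of window shares with groups apart, 0 of 10, ran from 0 to 3 with 1 library left out. Groups with fewer libraries come apart more easily, and no share over all genes was computed for these windows, so the counts are description only. Of the 5 nearest patterns, 1 to 4 stayed nearest with 1 library left out, an alternative chosen after seeing the data. With the replicate number as a block, 685 transcripts, 0 SR genes and 0 list genes were called. The labels do not state whether same-numbered libraries were paired. Same-numbered libraries had correlations of deviations of -0.21, 0.54 and -0.31, and libraries with different numbers had -0.40 to 0.54. So few libraries cannot show whether the numbers mark pairs.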
